A study of Mus musculus with 27 samples.

Results

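Potassium channel genes were followed through development of the mouse retina in RNA-seq libraries of 7 ages. The genes are those with a Gene ID whose symbol is Kcn followed by a family letter code and a number, apart from Kcnj10, and where a symbol was listed more than once (Kcnf1, Kcnn1 and Kcnn4) the entry with the highest mean was taken. This gave 88 genes of the 38168 features in the deposited values, of which 23263 features have a Gene ID. Values are CPM, the reads of a gene scaled by the counted reads of its library to a common total, the same for all libraries. All libraries were whole retina of wild type C57BL/6J mice with no treatment, with 3 at embryonic day 14 (E14), 3 at E17, 4 at postnatal day 1 (P1), 3 at P6, 4 at P15, 4 at P28 and 6 at P60. Embryonic and P1 libraries held both sexes and those from P6 on were from males, so that sex cannot be told apart from age in comparisons that span P1 and P6. Libraries pooled retinas of several animals, except that 4 at P60 were each from 1 mouse and 2 were pools, with no label saying which, while the labels give n = 3 for every library. No treatment or mutation separates the groups, and the question of the comparisons is how expression shifts from retinal neurogenesis through differentiation and eye opening to the mature tissue.

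Potassium channels let potassium leave the cell down its gradient and so set the resting potential, end action potentials and shape slow electrical responses. Voltage-gated (Kv) channels are tetramers of pore-forming alpha subunits, and modifier subunits join these tetramers but form no channel by themselves. Inward rectifiers hold the membrane near rest, 2-pore domain channels carry background leak, calcium- or sodium-activated channels open as these ions enter, and auxiliary subunits (beta, Kcne, KChIP and others) alter gating and transport. In the photoreceptor inner segment a Kv current and a calcium-activated current shape the light response, in Müller glia inward rectifiers clear potassium, and ganglion and amacrine cells need fast Kv channels for spiking.

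The libraries held 7076646 to 11330762 reads on listed features (median 7968785), so that 1 read was worth 0.0882 to 0.141 CPM. Markers of neural retina were present at every age (6 of 6 listed, summed level 621.9 to 643.4 CPM at E14 and 1375 to 1610 CPM at P60), and the lens markers (3 of 4 listed) summed to 4.54 to 5.79 CPM at E14 and 1.55 to 4.39 CPM at P60, with Cryaa at 0 in 24 libraries and Mip and Bfsp1 at 0 in none. Over the 38 potassium channel genes with a mean of at least 10 CPM, the median coefficient of variation between libraries was 6.98% to 12.2% at the other ages and 13.7% at P60. Deviations from the P60 mean, over all features tested, correlated at r = 0.48 between P60 replicates 1 and 2 and at r = -0.60 between replicates 1 and 3. The count between embryonic and mature retina is therefore also given without P60. Retina was measured as a whole, so a change in the number of cells of a type and a change of RNA per cell cannot be told apart here. Nothing states whether libraries of an age came from separate animals throughout, and p-values measure the spread between these libraries.

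Most changes ran toward higher levels with age. The call asked for a log2 fold change of 1 or more in either direction with an adjusted p below 0.05 in limma, fitted to log2(CPM + 1) over the 31760 features that reached 1 CPM in 3 or more libraries, and 75 of the 88 genes entered. Between embryonic retina (mean of E14 and E17) and mature retina (mean of P15, P28 and P60), 40 of the 75 were higher in mature retina (53.3%) and 5 were lower (6.67%), whereas of all features tested 14.9% were higher and 16.1% lower. The median log2 fold change was 1.12 over the 75 genes and -0.06 over all features. Of the 75, 13 reached 1 CPM in no embryonic library and 4 in no mature library, so they entered through one side only. Among the 55 that reached 1 CPM in at least 3 embryonic and at least 3 mature libraries, 32 were higher and 2 lower. The share of all features by that rule is not given here, so nothing is read from this count. Every mature library was above every embryonic one for 42 of the 75 genes (17.4% of all features tested), and every one was below for 8 (23% of all features). With mature retina taken as P15 and P28 only, a choice made after seeing the data, 46 genes were called instead of 45, Kcnq3 being gained. Across the 7 ages, 72 of the 75 genes varied (limma F test, adjusted p under 0.05, 83% of all features), the exceptions being Kcnj13, Kcns2 and Kcnu1.

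By family, the Kv alpha subunits had 11 of 15 tested genes higher in mature retina, with a median log2 fold change of 1.94. Of the inward rectifiers 8 of 10 tested were higher, with a median of 2.56. Auxiliary subunits had 9 of 13 higher and 1 lower (Kcne1), and calcium- or sodium-activated channels had 4 of 7 higher (Kcnma1, Kcnn2, Kcnn3 and Kcnt1). The 2-pore domain channels had 3 of 9 higher (Kcnk3, Kcnk4 and Kcnk9) and 2 lower (Kcnk5 and Kcnk10), and their median was -0.67. In the EAG family, Kv channels with a cyclic nucleotide-binding-like domain, 2 of 8 were higher (Kcnh5 and Kcnh6) and 2 lower (Kcnh4 and Kcnh8). Of the modifier Kv subunits 3 of 9 were higher (Kcng3, Kcng4 and Kcnv2), and of the Kcnq genes the 4 tested stayed under the fold threshold. Of the genes called here, Kcne2, Kcnj5, Kcnj14, Kcnk4 and Kcnk9 reached 1 CPM in no embryonic library. Kcne1, Kcnh4 and Kcnk5 reached it in no mature library. The filter largely set the direction of such genes, which enter the family counts and medians. Differences between families were not tested.

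**Figure D1:**
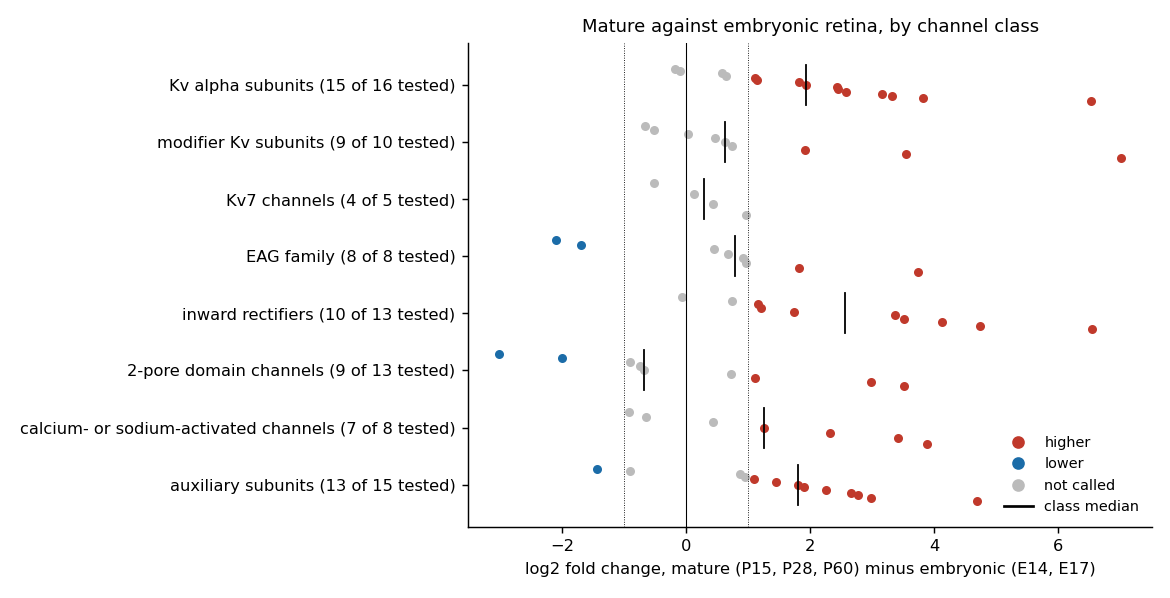
Log2 fold change of each tested potassium channel gene between embryonic (E14 and E17) and mature (P15, P28 and P60) retina, grouped by family; each point is a gene, vertical bars are family medians and dotted lines mark a log2 fold change of 1 in either direction. Kcnv2 (7.02) and Kcnj14 (6.54) lie farthest to the right and Kcnk10 (-3.01) farthest to the left.

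Most calls between neighbouring ages came from E14 to E17 and between P1 and P15. From E14 to E17, 16 genes rose and none fell, where 2.9% of all features rose and 0.702% fell; at an unadjusted p under 0.05 limma had 4 lower, and edgeR called 1 lower. From E17 to P1, 7 rose and 1 fell (1.23% and 0.614% of all features). From P1 to P6, 19 rose and 4 fell (6.3% and 6.74%), and from P6 to P15, 18 rose and 3 fell (4.74% and 3.31%). In all, 30 genes rose at one of these postnatal steps and 7 of them at both. After P15 few calls remained. From P15 to P28 none rose and Kcng1 fell (0.164% and 0.22% of all features), with 15 genes at an unadjusted p under 0.05, and edgeR called 2 lower. From P28 to P60 none was called by limma (0.0756% higher and 0.378% lower among all features) or by edgeR, with 19 and 21 at an unadjusted p under 0.05. Counts at an unadjusted p, by edgeR and over both postnatal steps have no share of all features beside them, so nothing is read from them. Neighbouring steps share the libraries of the age between them. The age with the highest mean was E14 for 8 of the 75 tested genes, E17 for 6, P1 for 2, P6 for 3, P15 for 22, P28 for 11 and P60 for 23.

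**Figure D2:**
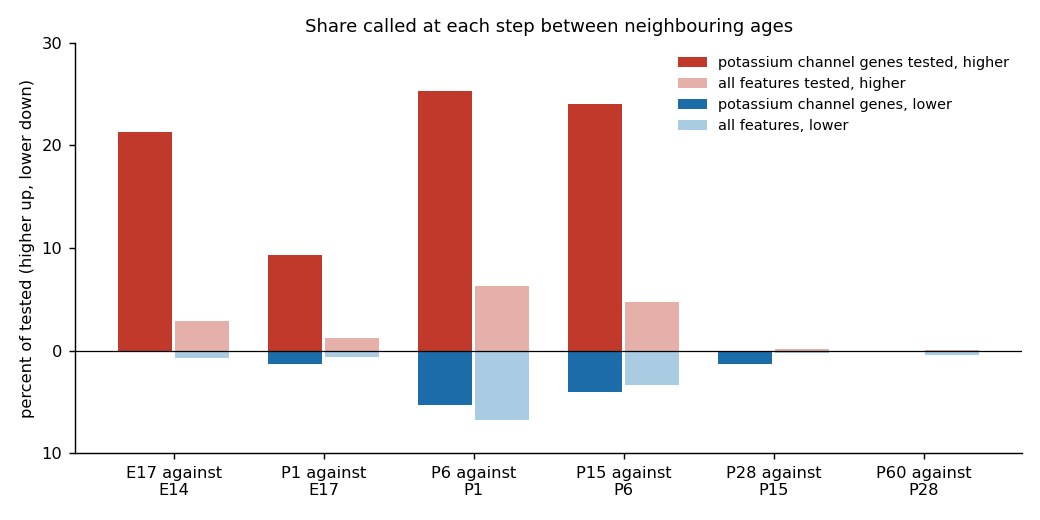
Percent of the tested potassium channel genes (dark bars) and of all features tested (pale bars) called higher (up) or lower (down) at each step between neighbouring ages. Shares of channel genes called higher were 21.3% at E17 against E14, 9.33% at P1 against E17, 25.3% at P6 against P1 and 24% at P15 against P6, and few calls followed.

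Families differed in which steps held their calls, as counts without a test. Of the Kv alpha subunits 8 rose from E14 to E17, among them Kcna1, Kcna4, Kcna5, Kcnc2 and Kcnd2, and 5 from P6 to P15, among them Kcna1, Kcna2 and Kcnc2. Inward rectifiers had 1 rise from E14 to E17 (Kcnj6), 3 from P1 to P6 (Kcnj2, Kcnj5 and Kcnj6) and 5 from P6 to P15 (Kcnj2, Kcnj5, Kcnj9, Kcnj12 and Kcnj14). Markers of retinal cell types moved over the same ages. The summed level of the 5 photoreceptor markers (5 of 5 listed, none at 0 in any library) was 19.1 to 24.7 CPM at E14, 42.7 to 53.1 at P1, 1757 to 2364 at P6, 14420 to 15590 at P15 and 22010 to 27150 at P60. The 5 bipolar cell markers (5 of 5 listed) went from 11.2 to 13.7 CPM at P1 to 311.6 to 451.3 at P6 and 1037 to 1068 at P15, with Grm6 at 0 in 3 libraries and Vsx1 at 0 in 4. Against this sum, Vsx1 fell from a mean of 52.4 CPM at P6 to 28.5 at P15. The 4 amacrine cell markers (4 of 4) went from 19.4 to 24.0 CPM at E14 to 110.7 to 128.7 at E17, with Chat at 0 in 3 libraries. The 4 Müller glia markers (4 of 4) went from 359 to 377 CPM at P6 to 869.3 to 969.7 at P15, although Slc1a3 fell from a mean of 195.9 to 120.5. Progenitor markers (5 of 5) fell from 2868 to 3284 CPM at P1 to 99.3 to 128.7 at P6 and 21.2 to 25.98 at P15. Their part in the changes of channel genes was not tested.

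**Figure D3:**
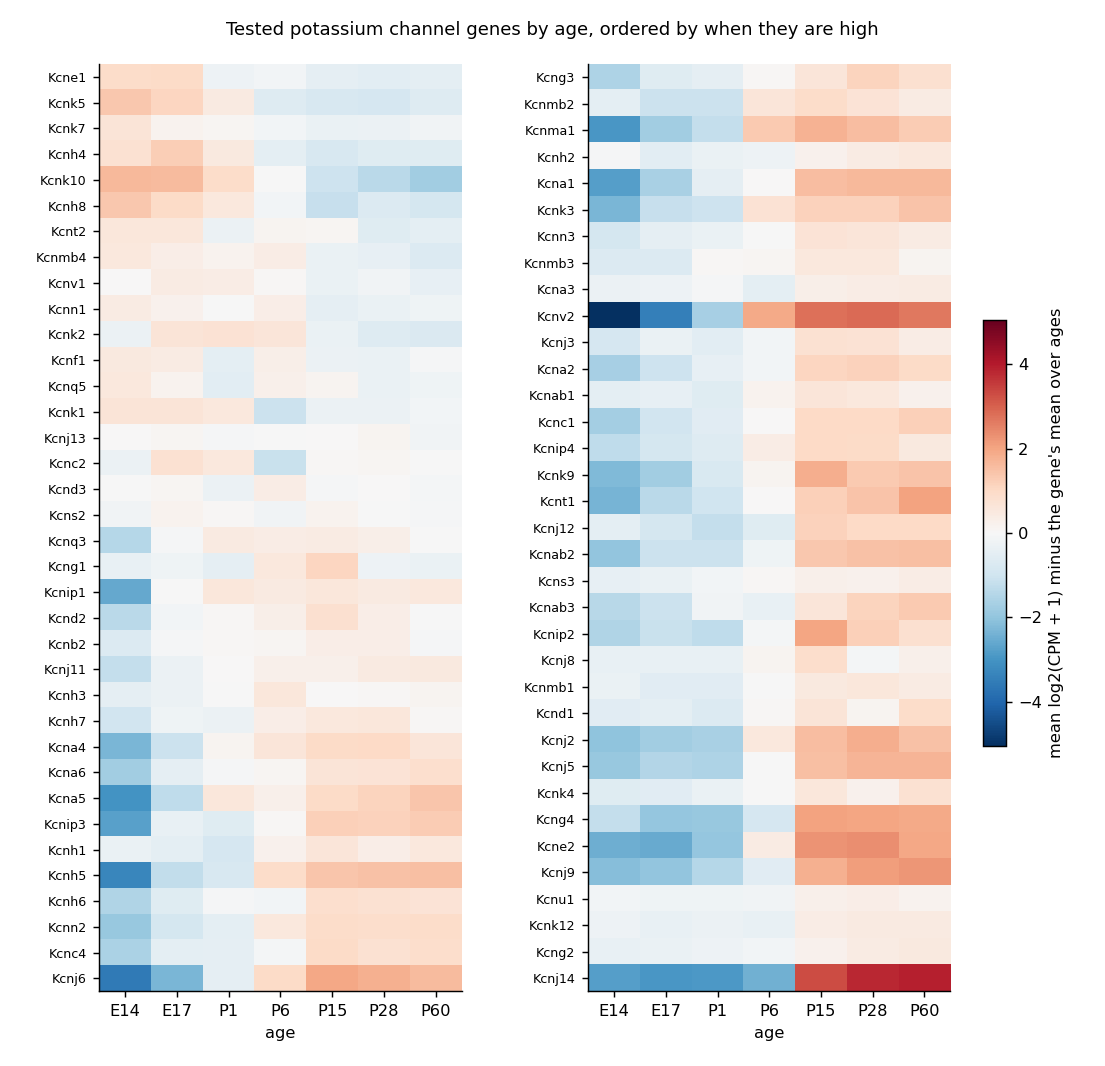
Mean log2(CPM + 1) of each of 71 tested potassium channel genes at each age, minus the gene's mean over the ages; red is above and blue below that mean. Genes are ordered by how late in development their level is concentrated, from Kcne1 and Kcnk5, high at E14 and E17, to Kcnj14, high from P15 on.

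Kcnv2 had the largest rise on the log2(CPM + 1) scale. It encodes a modifier subunit of Kv channels in photoreceptors, where loss of KCNV2 causes a cone dystrophy in humans. In mouse build GRCm38 it lies on the plus strand of chromosome 19 from 27322588 to 27337179. Kcnv2 was at 1.5, 1.27 and 0.632 CPM at E14, with 4.70, 4.59 and 7.14 CPM at E17 and 22.6, 17.6, 19.2 and 25.0 CPM at P1. At P6 it measured 286.8, 253.7 and 241.2 CPM, at P15 491.7, 495.8, 477.3 and 442.6 CPM and at P60 411.9 to 495.7 CPM (median 433.3). Ages up to P15 did not overlap, whereas the P15 and P60 libraries did. The log2 steps of Kcnv2 in limma were 1.60 at E17 (adjusted p = 1.2e-10), 1.78 at P1 (adjusted p = 6.2e-12) and 3.57 at P6 (adjusted p = 1.2e-20), the last being the largest change of any of these genes at that step. Between embryonic and mature retina it rose by 7.02 (standard error 0.08, adjusted p = 5.5e-35, limma), the largest rise of the 75 on log2(CPM + 1). The added 1 CPM understates rises of low genes. As ratios of mean CPM, mature over embryonic, the rises of Kcnj14 (335) and Kcne2 (195) exceeded that of Kcnv2 (144).

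Kcnma1 encodes the pore of the BK channel, which opens on calcium and depolarization together. It lies on chromosome 14 from 23289431 to 24014491 and shares 1016 exon bases with 4930519K11Rik on the opposite strand. The libraries held 36.5, 29.1 and 34.0 CPM at E14, 69.8, 77.4 and 78.2 CPM at E17, 109, 110.3, 111.2 and 113 CPM at P1 and 677.9, 613.5 and 654.5 CPM at P6. It was highest at P15, with 897.4, 886.1, 911.7 and 785.0 CPM, and ranged from 524.2 to 754.1 CPM at P60 (median 615.8). All P6 libraries were above all P1 libraries, and all P60 libraries were below all P15 libraries. The steps were 1.16 from E14 to E17 (adjusted p = 3.2e-10, limma) and 2.54 at P6 against P1 (adjusted p = 5.1e-20, limma), and the change from P28 to P60 was -0.29 (adjusted p = 0.02, limma), below the fold threshold. At P60, replicates 1 and 2 held the higher values, 754.1 and 737.4 CPM.

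Kcne2 encodes a small auxiliary subunit with 1 membrane span that changes the gating of several Kv channels. It had 0 to 2 reads in each embryonic library (9 reads in all), then 0.491, 1.01, 1.13 and 0.237 CPM at P1 and 10.3, 6.06 and 6.89 CPM at P6. It reached 31.9, 28.8, 28.8 and 33.0 CPM at P15 and 30.0, 31.2, 32.5 and 35.2 CPM at P28, and ranged from 21.3 to 30.6 CPM at P60 (median 23.7). Pooled reads per total reads were 188-fold higher in mature retina (95% interval 98.8 to 411, exact binomial, counting error only). In limma the P6 level of Kcne2 exceeded the P1 level by 2.35 (adjusted p = 2.2e-12), and P15 exceeded P6 by 1.88 (adjusted p = 8.2e-10). Kcne2 reached 1 CPM in no embryonic library and entered the test through its later ages, so these p-values add no support.

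Together the 88 genes summed to 740.6 to 791 CPM at E14, 1266 to 1339 at P1, 2691 to 2884 at P6, 5065 to 5136 at P15 and 5076 to 5457 at P60. The sums at P15 and P60 overlapped. Kcnma1 held 15.4% to 17.8% of the sum at P15 and 10.3% to 14.2% at P60, without overlap.

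**Figure D4:**
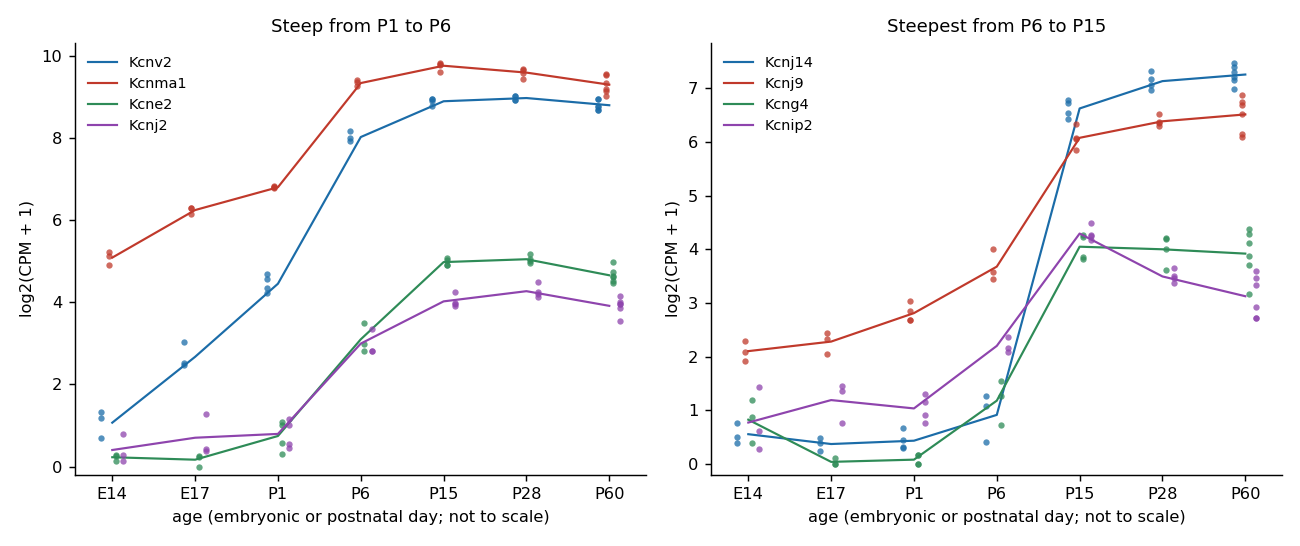
Levels as log2(CPM + 1) in every library (points) with the age mean (lines), for genes whose largest step was from P1 to P6 (left) and from P6 to P15 (right). The left genes had left their P1 range by P6, whereas Kcnj14 was at 0.324 to 1.41 CPM at P6 and between 85.7 and 110 CPM at P15.

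A later group of genes rose most from P6 to P15, the interval that holds eye opening. The 4 largest rises at this step were Kcnj14 (5.71), Kcng4 (2.87), Kcnj9 (2.40) and Kcnip2 (2.09, log2 fold changes). Kcnj14, a strong inward rectifier gene on chromosome 7 from 45816460 to 45824782, measured 0.368, 0.252, 0.226 and 0.591 CPM at P1 and 1.41, 0.324 and 1.10 CPM at P6. At P15 it was at 85.7, 105, 92.5 and 110 CPM, at P28 at 143, 125, 133 and 160 CPM, and at P60 from 126 to 177 CPM (median 152). Every library up to P6 was below every library from P15 on. Kcnj14 had 23 reads in the embryonic libraries against 14466 in the mature ones, a 349-fold difference per total reads (95% interval 232 to 551, exact binomial, counting error only). In limma the step from P6 to P15 had a standard error of 0.16 and an adjusted p of 2.5e-22. Kcnj14 reached 1 CPM in no embryonic library and entered the test through its later ages, so this p-value adds no support.

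Kcnj9 encodes a G protein-gated inward rectifier that acts with other such subunits, and Kcng4 a modifier of Kv channels. Kcnj9 was at 15.1, 10.9 and 9.93 CPM at P6 and 65.3, 56.9, 66.4 and 79.6 CPM at P15 (adjusted p = 4.8e-13, limma). Kcng4 was at 1.41, 0.649 and 1.93 CPM at P6 and 13.5, 13.2, 18.4 and 17.9 CPM at P15 (adjusted p = 5.6e-11, limma). In both genes every P15 library was above every P6 library. At P60 Kcnj9 was at 67.4 and 70.1 CPM in replicates 1 and 2 and 90.9 to 117 CPM in the other 4. Kcng4 was low before P6, with 25 reads over the embryonic libraries, 13 of them in 1 library, and its pooled level was 36.2-fold higher in mature retina (95% interval 24.4 to 56.1, counting error only), and 62.8-fold without E14 replicate 1. Kcnj9 shares 172 exon bases with Gm36937 on the opposite strand.

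The promoters of these genes were searched for 3 short motifs of retinal factors in RefSeq windows (GRCm38.p6) that run from 250 bases before to 50 after a start, on both strands. Windows were found for 63 of the 88 genes (88 windows); Kcnv2 and Kcnj14 had none. The core of CRX and OTX sites, TAATCC, occurred in 2 of the 88 windows, those of Kcnj9 and Kcng4, a smaller share than the 7.06% of all 32851 windows. The NRL element part TGCTGA was in 15 windows of 10 genes (19.5% of all windows) and the neural E-box CAGATG in 17 windows of 15 genes, among them Kcne2 and Kcnh5 (17.2% of all windows). Windows of a gene can overlap, so the same site can count more than once, as the TGCTGA site of Kcnc2 did. Each motif is spelled in full here and none contains another. A match of letters is a description and not a binding site. Kcnj2 and Kcnip2, which also rose at the P6 and P15 steps, had no match in their windows, nor had a second Kcne2 window (chr16:92295366-92295665). The windows of Kcnj9 (chr1:172329273-172329572, minus strand), Kcng4 (chr8:119635631-119635930, minus strand) and Kcne2 (chr16:92292139-92292438, plus strand) are shown as examples that hold a motif, with motif letters in capitals (GGATTA at -97, TAATCC at -5 and CATCTG at -214 from the start; GGATTA and CATCTG are the other strand of TAATCC and CAGATG).
Kcnj9: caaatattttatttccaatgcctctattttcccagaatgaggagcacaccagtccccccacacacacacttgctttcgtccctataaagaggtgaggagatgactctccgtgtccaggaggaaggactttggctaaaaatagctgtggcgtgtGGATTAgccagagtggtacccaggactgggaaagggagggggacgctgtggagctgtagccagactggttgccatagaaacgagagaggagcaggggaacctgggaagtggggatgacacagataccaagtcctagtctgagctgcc
Kcng4: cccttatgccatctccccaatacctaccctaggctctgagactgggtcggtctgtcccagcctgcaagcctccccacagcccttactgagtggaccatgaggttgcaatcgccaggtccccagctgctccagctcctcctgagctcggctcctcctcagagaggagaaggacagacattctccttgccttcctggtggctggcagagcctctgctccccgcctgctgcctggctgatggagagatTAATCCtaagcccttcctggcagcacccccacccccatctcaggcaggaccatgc
Kcne2: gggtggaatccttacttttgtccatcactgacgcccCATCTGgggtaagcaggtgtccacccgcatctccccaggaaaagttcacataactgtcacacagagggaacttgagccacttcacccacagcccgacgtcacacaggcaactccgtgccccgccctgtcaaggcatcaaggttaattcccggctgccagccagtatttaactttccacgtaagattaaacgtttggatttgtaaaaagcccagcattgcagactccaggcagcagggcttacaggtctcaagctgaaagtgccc

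Kcnip2, which encodes a calcium-binding KChIP subunit of Kv4 channels, had a peak at P15. It was at 3.25, 3.46 and 4.14 CPM at P6, 17.9, 17.1, 21.4 and 18.3 CPM at P15, 10.1, 11.5, 10.3 and 9.30 CPM at P28 and 5.63 to 11.0 CPM at P60 (median 7.81). The P15 libraries were above all others. The fall from P15 to P28 was -0.80 (adjusted p = 0.042, limma) and did not reach the fold threshold. Its relatives Kcnip1 and Kcnip3 rose before birth instead. Kcnip1 went from 1.40, 1.79 and 2.32 CPM at E14 to 14.2, 16.3 and 15.9 CPM at E17. This rise (2.55, adjusted p = 1.7e-13, limma) was the largest change of that step on log2(CPM + 1). Kcnip3 went from 3.00, 2.22 and 2.63 to 16.4, 16.4 and 20.8 CPM (2.38, adjusted p = 1.1e-13, limma). Kcnip1 then stayed between 17.05 and 33.5 CPM from P1 to P60, and Kcnip3 rose again from P6 to P15 (1.12, adjusted p = 1.2e-07, limma).

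Other inward rectifiers differed in timing. Kcnj6, a G protein-gated subunit like Kcnj9, had 0, 1 and 4 reads in the E14 libraries. It was at 1.33, 2.29 and 1.97 CPM at E17, 9.44, 10.6, 8.37 and 8.64 CPM at P1 and 30.8, 24.6 and 23.4 CPM at P6. From E14 to P6 each age lay above the one before, and the steps were 1.29, 1.85 and 1.41 (adjusted p = 6.4e-08, 1.4e-11 and 4.6e-10, limma). Mature libraries ran from 37.9 to 57.3 CPM. Kcnj6 shares 380 exon bases with Gm41505 on the opposite strand. Kcnj2, which helps to set the resting potential, was at 0.368, 1.01, 1.24 and 0.473 CPM at P1, 9.18, 6.06 and 6.07 CPM at P6 (2.20, adjusted p = 8.7e-10, limma) and 14.6, 14.7, 18.0 and 14.0 CPM at P15.

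Kcnj8 and Kcnj13 are known from cells beside the neurons of the retina. Kcnj8 encodes the pore of the ATP-sensitive channel of vessel mural cells, where it pairs with the regulatory subunit encoded by Abcc9. No read of Kcnj8 was counted in the 10 libraries of E14, E17 and P1, which allows up to 0.378 CPM (3 reads). It was at 0.424, 0.216 and 0.689 CPM at P6, 0.803, 1.58, 1.34 and 2.20 CPM at P15 and 0.400, 0.421, 0.135 and 0 CPM at P28. The P15 mean was at least 3.91-fold higher than the limit at the earliest ages. From P15 to P28 Kcnj8 changed by -0.99 (adjusted p = 0.0025, limma), just short of the fold threshold, and it passed when P15 replicate 1, P15 replicate 3, P28 replicate 1 or P28 replicate 2 was left out. Abcc9 also rose to P15 and then fell, with 0.391 ± 0.234 CPM (SD, n = 4) at P1, 14.8 ± 2.04 at P15 and 5.09 ± 1.60 at P28. From P28 to P60 Kcnj8 changed by 0.37 (adjusted p = 0.16, limma), while Abcc9 was at 4.25 ± 1.97 CPM (SD, n = 6) at P60. Kcnj8 had at most 16 reads in any mature library. It reached 1 CPM in no embryonic library and entered the test through its later ages, so its p-values add no support. The 5 mural cell markers (5 of 5 listed, Abcc9 among them) summed to 12.9 to 14.6 CPM at P1, 109.2 to 126.6 at P15 and 39.4 to 49.2 at P28, and Rgs5 was at 0 in 1 library. The sum at P15 was mostly Rgs5 (means of 3.37, 87.4 and 31.7 CPM at P1, P15 and P28). Acta2 hardly moved (1.14, 1.32 and 1.01). Pdgfrb moved less (6.79, 10.9 and 7.27) and was already at 10.15 CPM at E17. The part of these markers in the Kcnj8 values was not tested.

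Kcnj13, an inward rectifier of the retinal pigment epithelium and some glia, did not vary over the ages at the threshold. Its age means ran from 12.4 to 14.3 CPM, and single libraries from 4.64 CPM (P60 replicate 3) to 20.7 CPM (P60 replicate 2). Mature minus embryonic retina gave -0.06 on the log2 scale (standard error 0.15, adjusted p = 0.72, limma), and its sign was positive with median-of-ratios scaling (0.01), with edgeR (0.07), without P60 replicate 3 (0.01) and without P60 (0.02). Kcnj13 shares 623 exon bases, of 1270 in all, with Gigyf2 on the opposite strand. The 6 pigment epithelium markers (6 of 6 listed) summed to 3.69 to 6.00 CPM at E14, 36.5 to 61.8 at P15 and 16.1 to 60.3 at P60, and Rpe65 was at 0 in 6 libraries. The rise of the sum from E14 to P15 was mostly Rgr (means of 0.825 and 22.2 CPM), Lrat (0.135 and 12.6) and Rpe65 (0.176 and 6.55). Best1 hardly moved (1.05, 1.13 and 1.02 CPM at E14, P15 and P60). Tyrp1 rose and fell back (0.479, 1.48 and 0.652), and Pmel was lower at P60 than at E14. The part of these markers in the Kcnj13 values was not tested.

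The Kv1 and Kv3 alpha subunits serve axons and fast-spiking neurons. Kcna1 measured 2.10, 0.738 and 2.63 CPM at E14, 4.40, 4.50 and 6.32 CPM at E17 and 11.4, 15, 11.8 and 13.2 CPM at P1. It was at 18.8, 21.5 and 14.6 CPM at P6 and 57.6, 55.8, 54.2 and 48.2 CPM at P15. Called steps were E14 to E17 (1.16, adjusted p = 3e-05), E17 to P1 (1.197, adjusted p = 1e-05) and P6 to P15 (1.52, adjusted p = 3.1e-08, all limma). Kcna2, its common partner in axons, went from 25.0 to 45.7 CPM in embryonic libraries (median 37.0) to 154.7 to 218.7 CPM in mature ones (median 204), a log2 difference of 2.46 (standard error 0.06 and adjusted p = 1.5e-25, limma) and 1 called step, P6 to P15 (1.23, adjusted p = 2.6e-11, limma). Kcna5, another Kv1 delayed rectifier, had its called steps before and around birth. It was at 2, 3.06 and 1.89 CPM at E14, 7.16, 13.7 and 10.6 CPM at E17 and 39.6, 33.0, 37.9 and 45.3 CPM at P1 (steps of 1.76 and 1.83, adjusted p = 4.5e-09 and 1.1e-09, limma), and 27.7 to 33.8 CPM at P6. From P6 to P15 Kcna5 rose by 0.73 (adjusted p = 8.1e-04, limma), below the fold threshold. Its mature libraries ran from 45.1 to 85.7 CPM (median 57.9).

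Kcnc1, which encodes a fast Kv3 delayed rectifier, climbed in smaller steps, none of them past the fold threshold. Its libraries ran from 18.2 to 36.8 CPM in embryonic retina (median 30.4) and from 143 to 181 CPM in mature retina (median 152), without overlap (2.43, standard error 0.06, adjusted p = 1.5e-26, limma). Kcnh5, an EAG channel of neurons, rose from 1.70, 1.37 and 2.42 CPM at E14 to 9.30, 11.9 and 10.04 CPM at E17 (2.02, adjusted p = 3.6e-13, limma) and again from 14.0, 12.4, 14.8 and 17.7 CPM at P1 to 52.0, 49.1 and 52.0 CPM at P6 (1.74, adjusted p = 4.1e-13, limma). Both steps left no overlap between the ages. Kcnh2, the EAG relative known for its part in cardiac repolarization, changed by 0.68 (standard error 0.08, adjusted p = 1.7e-08, limma) between 15.3 to 25.0 CPM in embryonic and 27.3 to 51.5 CPM in mature libraries, below the fold threshold.

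The genes lower in mature retina were 5, and 3 of them were low throughout. Kcnk10, a 2-pore domain channel opened by lipids and stretch, measured 33.3, 29.6 and 37.3 CPM at E14 and 32.2, 30.9 and 36.03 CPM at E17. It was at 21.2, 16.1, 22.2 and 21.4 CPM at P1, 8.76, 10.7 and 10.2 CPM at P6 and 4.55, 3.42, 4.38 and 5.22 CPM at P15, and 1.51 to 2.96 CPM at P60 (median 2.50). Each age from P1 to P15 lay below the one before. The change of -3.01 in limma (standard error of 0.11, adjusted p = 5.2e-22) was the largest fall of the 75 on log2(CPM + 1). The added 1 CPM understates falls of low genes. As ratios of mean CPM, embryonic over mature, the falls of Kcne1 (53.0), Kcnk5 (49.5) and Kcnh4 (25.1) exceeded that of Kcnk10 (9.91). Kcnh8, of the ELK branch of the EAG family, fell from a median of 14.4 CPM in embryonic libraries to 2.75 CPM in mature ones (-2.10, adjusted p = 7.8e-14, limma), and the 2 groups did not overlap.

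Kcnk5, a 2-pore domain channel sensitive to pH, was at 3.80, 3.69 and 3.47 CPM at E14 and at 0 in 9 of the 14 mature libraries, with 194 embryonic and 9 mature reads. Its pooled level was 38.9-fold higher in embryonic retina (95% interval 20.1 to 86.3, exact binomial, counting error only), and 64.1-fold without P60 replicate 4, which held 4 of the 9 reads. Kcnh4, the ELK relative of Kcnh8, had 156 embryonic and 12 mature reads (23.4-fold, 95% interval 13.0 to 46.3). Kcne1, the auxiliary subunit known for its work with Kcnq1 in the heart, had 113 and 4 reads (50.9-fold, 95% interval 19.4 to 190), and the ratio was 94.1 without P60 replicate 6, which held 2 of the 4. Kcne1 fell from E17 to P1 (-1.25, adjusted p = 3.9e-05, limma), whereas Kcnk5 and Kcnh4 fell from P1 to P6 (-1.11 and -1.01, adjusted p = 1.4e-06 and 5.8e-06, limma). Kcne1 had no read in 2 of the 4 P1 libraries. Over E14, E17, P1 and P6 the median summed level of the 5 progenitor markers was 3785, 3583, 3169 and 124.9 CPM. Over the same ages the 3 horizontal cell markers (3 of 3 listed, none at 0) summed to 226, 135.6, 63.5 and 50.9 CPM, and the 5 ganglion cell markers (5 of 5 listed, Thy1 at 0 in 2 libraries) to 685.1, 698.9, 395.4 and 347.2 CPM. The horizontal cell sum was mostly Onecut1 (mean 226.7 CPM at E14 and 33.8 at P6). Lhx1 (1.57 and 4.42) and Calb1 (0.541 and 13.6) rose between these ages, as did Thy1 among the ganglion cell markers (0.0351 and 28.8). The part of these cell types in the falls was not tested. Kcnk9, an acid-sensitive 2-pore channel, went the other way, from 0 to 0.818 CPM in embryonic libraries to 11.7 to 21.03 CPM in mature ones (3.52, adjusted p = 3.5e-23, limma). Kcnk9 reached 1 CPM in no embryonic library, and Kcne1, Kcnk5 and Kcnh4 reached it in no mature library. The filter largely set the direction of these genes, so their p-values add no support.

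**Figure D5:**
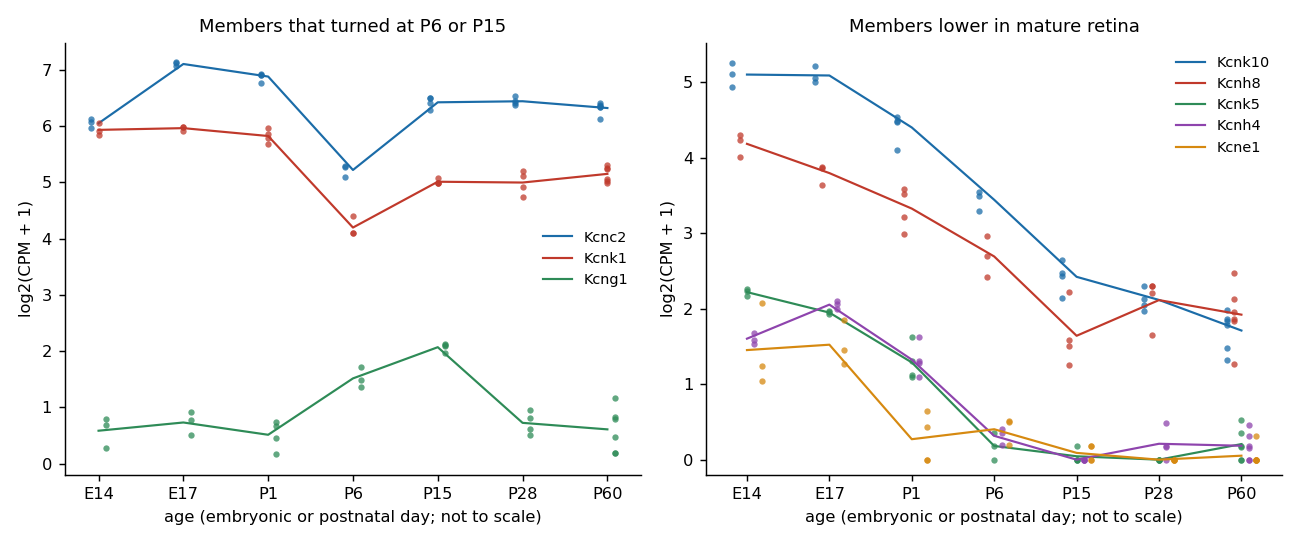
Levels as log2(CPM + 1) in every library (points) with the age mean (lines), for genes whose course turned (left) and for the genes lower in mature retina (right). Kcnc2 and Kcnk1 have their lowest libraries at P6 and Kcng1 its highest at P15.

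Kcnc2 and Kcng1 were called in opposite directions at different steps. Kcnc2, a Kv3 subunit of fast-spiking neurons, was at 66.2, 61.4 and 68.8 CPM at E14, 138, 133 and 140 CPM at E17 and 120, 122, 119 and 109 CPM at P1. It dropped to 33.2, 38.0 and 38.1 CPM at P6 and returned to 84.1, 89.7, 89.3 and 77.5 CPM at P15. The P6 libraries were below those of every other age. The steps were 1.05 from E14 to E17 (adjusted p = 5.3e-11), -1.66 from P1 to P6 (adjusted p = 2.6e-17) and 1.204 from P6 to P15 (adjusted p = 2.2e-13, all limma), while the net difference between embryonic and mature retina was -0.18. Its family relative Kcnc1 had no such drop, with 76.3, 76.2 and 72.4 CPM at P6 against 45.0 to 52.8 CPM at P1.

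Kcng1, a modifier Kv subunit, peaked at P15 with 3.35, 3.29, 3.29 and 2.89 CPM, after 1.55, 2.27 and 1.79 CPM at P6, and fell to 0.533, 0.421, 0.947 and 0.754 CPM at P28 (-1.35, adjusted p = 5.4e-05, limma). Its rise from P1 to P6 sat at the threshold (1.003, adjusted p = 2.8e-04, limma) and was not called without P1 replicate 1 (0.89), P1 replicate 2 (0.99) or P6 replicate 2 (0.91), nor with median-of-ratios scaling (0.991). Kcng1 reached 1 CPM in no embryonic library and entered the test through its later ages, so these p-values add no support.

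Kcnk1, a 2-pore domain channel of weak activity, dropped at P6 as Kcnc2 did. It did not share the rise of Kcnc2 from E14 to E17 (0.03 for Kcnk1, adjusted p = 0.95, limma). Kcnk1 was at 57.4, 61.4, 54.3 and 50.5 CPM at P1, 16.1, 16.1 and 20.1 CPM at P6 and 30.6, 30.8, 32.9 and 30.9 CPM at P15. The fall from P1 to P6 was -1.63 (adjusted p = 1.1e-13, limma) and the rise after it 0.82 (adjusted p = 5.9e-07, limma), below the fold threshold. The mature libraries stayed below all embryonic ones. Per kilobase of merged exons Kcnk1 was the most abundant of the genes at E14 (25.2 to 29.2 CPM per kb), E17 (26.6 to 28.1) and P1 (22.6 to 27.5). At P6 that place went to Kcnv2 (47.2 to 56.2 CPM per kb), above Kcnma1 (36.1 to 39.9). At P60 the descending order among 3 of the genes was Kcnv2 (80.7 to 97.0), Kcnj14 (46.4 to 65.2) and Kcnma1 (30.9 to 44.4), with no overlap between neighbours in that order. Kcnk1 shares 179 exon bases with Gm45875 on the opposite strand.

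Kcnq3 encodes a subunit of channels that damp repeated firing. Kcnq3 rose from 12.0, 8.12 and 11.5 CPM at E14 to 27.5, 29.5 and 29.2 CPM at E17 (1.38, adjusted p = 7.5e-09, limma). It was highest at P1, with 41.9, 36.1, 40.7 and 46.7 CPM. Between embryonic and mature retina Kcnq3 differed by 0.97 (adjusted p = 7.3e-12, limma), just under the fold threshold, and it passed without E14 replicate 1 (1.02) or E14 replicate 3 (1.003) and without P60 (1.10).

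Of 13 genes for partners of these channels outside the Kcn symbols, 12 were listed and tested, and 5 of the 12 were higher in mature retina. Of these, Abcc9, Lrrc26 and Lrrc38 reached 1 CPM in fewer than 3 embryonic libraries and so were tested through their mature levels. Of the 9 partners at 1 CPM in at least 3 embryonic and at least 3 mature libraries, 2 were higher (Abcc8 and Lgi1) and none was lower by limma, so nothing is read from the count. Abcc8, the other regulatory subunit of ATP-sensitive channels, rose by 2.73 and Abcc9 by 2.57 (adjusted p = 1.6e-17 and 7.2e-15, limma), and Lgi1, a secreted protein of the Kv1 complex, by 1.85 (adjusted p = 9.7e-14, limma). The other 2, named after their values were seen, were Lrrc26 and Lrrc38, for gamma subunits of BK channels, with log2 fold changes of 1.51 and 1.19 and age means under 1 CPM at E14.

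The 13 genes that did not enter the tests were Kcna7, Kcne3, Kcne4, Kcnj4, Kcnj15, Kcnj16, Kcnk6, Kcnk13, Kcnk15, Kcnk18, Kcnn4, Kcnq1 and Kcns1. Their highest value in any library was 1.54 CPM and their highest mean 0.396 CPM. Pooled reads gave a ratio for 12 of them, and for 5 (Kcne3, Kcne4, Kcnj15, Kcnj16 and Kcnk15) its 95% counting interval lay above 1, toward mature retina, from 1 to 4 embryonic reads each. The ratio was 7.40 for Kcnj15 (2.36 to 37.4) and 18.6 without E17 replicate 1, and 5.27 for Kcnj16 (1.90 to 20.3) and 8.86 without E14 replicate 3. These intervals cover counting error only and are no test between ages. Of the 88 genes, 28 share exon bases with another gene, 26 of them with one on the opposite strand and 2 on the same strand (Kcnab2 and Kcnk4). Whether counting used the strand is not stated, so reads of such genes may include those of the neighbour.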

How the data were processed

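Total RNA of whole retina had been made into libraries with the SMARTer total RNA kit, read single-end on a HiSeq-2500 and aligned with STAR to GRCm38 (mm10). The authors deposited the values as CPM for each library, and the annotation and the use of strand in counting are not given in the sources used here. The columns summed to 999814 to 999882, and every value above 0 came out as a whole number of reads within 0.1 read (100% of values).

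Depth set the precision, since 1 read was worth 0.0882 to 0.141 CPM and a count of 0 allows up to 3 reads, and intervals and such limits cover counting error only. Age came from the titles. The test was limma 3.58.1 (R 4.3.3, trend) on log2(CPM + 1), where the added 1 CPM understates changes of low genes, over the 27 libraries with age as a factor, for features that reached 1 CPM in 3 or more libraries, with Benjamini-Hochberg adjustment over all 31760 features. The count test, edgeR 4.0.16 (quasi-likelihood), ran on the recovered reads as an alternative. Exon lengths and overlaps came from GENCODE mouse release 21 (88 of 88 symbols matched) and promoters from RefSeq. Python 3.11.15, pandas 2.3.3, numpy 2.4.6, scipy 1.17.1 and matplotlib 3.10.9 were used, and the tests were tried on simulated data.

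Genes named were, among those changed without overlap between embryonic and mature retina, the 12 that rose most and up to 10 that fell most, at each step the 4 changed most, genes that changed in opposite directions, the 4 with the highest mean per length and a fixed list of channel genes. The genes and lists were chosen with earlier results of these data known. Other pseudocounts, filters, scalings and left-out libraries were tried, and edgeR without E14 replicate 1, whose read step could not be judged, and mature retina without P60 were added after seeing the data, as was leaving out each library from the pooled read ratios. Values of 4 of the genes are not reported here, although they enter the counts, family medians and sums.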

Additional observations from a re-analysis of the deposited data

Results flagged for a closer look

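In groups of 4 to 6 libraries, the highest or lowest library of a named gene was set against the others by Dixon's test, and 8 of 112 groups (7.14%) had such a library. Chance gives about 1 in 20 for independent groups, but these groups share libraries, so no excess is read from the count. Where all other libraries are at 0, as for Kcne1 and Kcnk5 below, the test flags any read. At P15 Kcnh5 was at 76.91 CPM and Kcnk1 at 32.86 CPM in replicate 3, each the highest of its group. Kcng1 was lowest in P15 replicate 4 (2.886 CPM), and Kcnk5 was at 0.1338 CPM in P15 replicate 1, which is 1 read where the other P15 libraries had 0. At P1, Kcnk10 was lowest in replicate 2 (16.14 CPM). Kcnh8 was lowest in P28 replicate 4 (2.137 CPM). At P60, Kcnc2 was lowest in replicate 3 (68.63 CPM), and Kcne1 was at 0.245 CPM in replicate 6, which is 2 reads where the other P60 libraries had 0.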

How the results depend on the processing

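Depth limits the low genes, for which 1 read is a large part of the level. Leaving out 1 library at a time gave 45 to 46 changed genes between embryonic and mature retina, 16 to 20 at E17, 7 to 9 at P1, 19 to 23 at both P6 and P15, 1 to 2 at P28 and 0 at P60 (each against the age before), where the 1 added at P28 was Kcnj8. With edgeR 58 genes changed between embryonic and mature retina (51 higher and 7 lower), 23 at E17, 30 at P6 and 29 at P15, against 45, 16, 23 and 21 in limma. A pseudocount of 0.1 CPM, edgeR, and edgeR without E14 replicate 1 each gave 13 at P1 and 2 at P28. Testing only genes with a mean of at least 10 CPM, which tests fewer genes, gave 26 between embryonic and mature retina, 13 at P6, 12 at P15, 0 at P28, 37 that vary over the ages and 0 partners. With no minimum fold the counts were 71 between embryonic and mature retina, 31, 30, 42, 49, 5 and 11 at the steps in order, and 11 partners. Shares of all features are not given for these alternatives. The sign of Kcnj13 between embryonic and mature retina turned with median-of-ratios scaling (0.0109), edgeR (0.069), edgeR without E14 replicate 1 (0.0703) and mature retina without P60 (0.0211), and it ran from -0.1148 to 0.0147 as libraries were left out, positive without P60 replicate 3, and the cause was not tested. Of the values for single genes and comparisons under the alternatives, 1972 of 1994 kept direction and side of the threshold.

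The replicate numbers were not treated as pairs. Deviations of 69 same-numbered pairs correlated at -0.13 to 0.17 (3 pairs over 0.1), and 7 of 27 libraries correlated best with a library of their own number. These values show no large effect shared by number, but cannot tell whether libraries of a number were prepared together. With the replicate block, 46 genes changed between embryonic and mature retina.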
